A study of Arabidopsis thaliana with 4 samples.

Results

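The glutathione transferases of the tau and phi classes were examined in the shoot apex of ron3 mutants and of Ler, the accession that served as their control, in Arabidopsis thaliana. The members were taken by locus identifier: 28 tau genes, GSTU1 to GSTU28, and 11 phi genes, GSTF2, GSTF3 and GSTF6 to GSTF14, which is 39 of the 25665 loci that had a probe. Each member was read by 1 probe. The study compared ron3 directly with Ler on 4 two-colour Agilent arrays, called a to d. On arrays a and c ron3 RNA carried the red dye Cy5 and Ler RNA the green dye Cy3. Arrays b and d had ron3 in Cy3 and Ler in Cy5. Plants of both genotypes were grown in vitro, under conditions labelled LD, to growth stage 1.02. The labels give neither the ron3 allele nor the number of plants behind an extract, and they do not say which arrays share an extract, so a p-value here reflects how far 4 arrays scatter, which may in part be technical.

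Glutathione transferases join the tripeptide glutathione to reactive or toxic compounds, which can then be moved into the vacuole by transporters of the ABCC family and broken down there. The tau and phi classes are the large plant classes of the family and are best known for herbicide detoxification and for transcripts that respond to stress, salicylic acid, auxin and reactive oxygen. Individual members also bind or conjugate the plant's own indoles, flavonoids and glucosinolate intermediates. Many of the genes lie side by side in the genome as tandem arrays of close paralogues.

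RON3, taken from general knowledge to be AT4G24500 and listed in the reference as SIC, had log2 ratios of ron3 over Ler of −2.31, −2.27, −2.21 and −2.41 on arrays a to d, with a fitted change of −2.30 ± 0.08 (SD, n = 4; limma, adjusted p = 0.000148). Its 1 probe was above background in both genotypes on all 4 arrays and was not placed relative to the lesion. Shoot meristem markers were present: 7 of 9 passed the filter, among them STM, KNAT1, CUC2 and CUC3, while WUS and CLV3 were well above background on 0 arrays. Of the 7 markers tested 3 were higher and 2 lower in ron3, 42.9% and 28.6%, beside 37.0% and 32.8% of all genes tested. Their mean normalised log2 signal was 7.61 to 7.71 in ron3 and 7.55 to 7.68 in Ler. Root and root hair markers passed in 11 of 12 cases, of which 8 were higher and 0 lower in ron3. Of these 8, EXPA7, EXPA18, RHD6, PRP3 and MYB36 passed through ron3 alone, and the count was 1 when both channels had to be well above background on all 4 arrays and 5 with the log ratio of the scanner software. It was 3 without array a and 5 without array c. The mean log2 ratio of the 11 markers was 0.61, 0.74, 0.69 and −0.02 on arrays a to d. Their mean normalised log2 signal was 7.42 to 7.53 in ron3 on arrays a to c and 6.91 on d, against 6.73 to 6.93 in Ler. IRT1, CASP1 and COBL9 were higher and well above background on at least 2 Ler arrays, PLT1 was well above background on 0 arrays, and EXPA7, EXPA18, RHD6 and PRP3 were so on 0 Ler arrays and MYB36 on 1. The part of root tissue in the values below was not tested.

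Transcripts of the tau and phi classes were mostly higher in ron3. Of the 39 members 36 were tested, 25 tau and 11 phi, and 28 were higher, 3 were lower and 5 were not called (limma, threshold of 0.05 on the adjusted p). Among all 19246 genes tested 69.8% were called, 37.0% higher and 32.8% lower, so about 3 in 4 members were higher where more than 1 in 3 of all genes were. The median log2 ratio was 0.63 over the members tested and 0.02 over all genes tested. At least 2-fold rises were seen in 15 members, 9 tau and 6 phi, where 6.02% of all genes rose as much. At least 4-fold rises were seen in 8 members, 7 tau and GSTF6, where 1.85% of all genes rose as much. Every one of the 28 higher members lay above 0 on all 4 arrays and the 3 lower ones lay below 0 on all 4. The calls were made from these same 4 ratios, so this agreement is no separate support for them. Since whole apices were extracted, more cells that hold a transcript and more RNA per cell cannot be told apart.

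**Figure D1:**
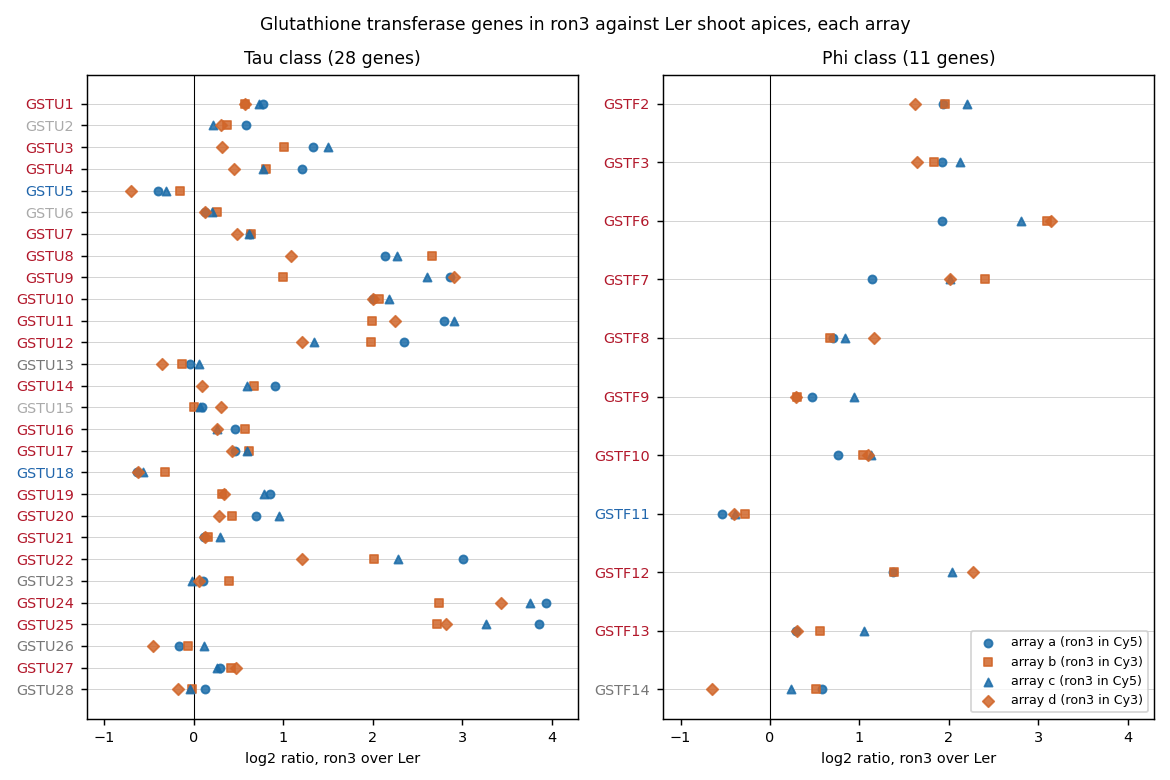
Log2 ratio of ron3 over Ler (x axis) for each member (y axis) on arrays a to d, with the tau class left and the phi class right. Names in red are higher, blue lower, dark grey not called and light grey not tested. The points of GSTU24 lie between 2.74 and 3.94 on every array, while those of GSTF14 fall on both sides of 0.

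The members tested include 6 that passed the filter through ron3 alone, since it asks for a signal well above background in either genotype on at least 2 arrays: GSTU3, GSTU4, GSTU12, GSTU14, GSTU21 and GSTF13. Such a gene could hardly pass without being higher in ron3. Among the 30 members measured in both genotypes 22 were higher, 3 lower and 13 at least 2-fold higher, with a median of 0.63. Of the 18221 genes so measured 6527 were higher and 1011 were at least 2-fold higher, with a median of 0.01. GSTU2 and GSTU15 were well above background on 0 arrays and GSTU6 on 1, for ron3 only, so these tau genes were not tested.

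**Figure D2:**
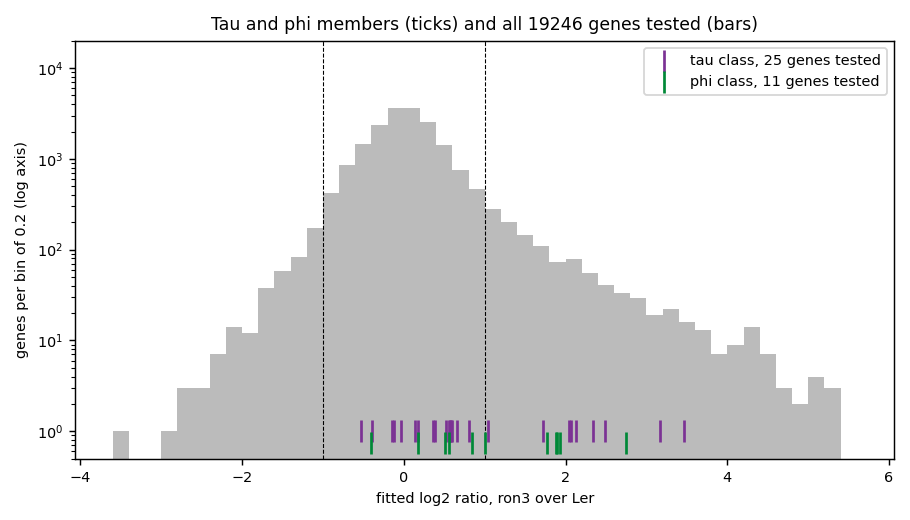
Fitted log2 ratio of ron3 over Ler (x axis) for all 19246 genes tested as grey bars, with the number of genes per bin on a log axis (y axis). Ticks at the foot mark the 25 tau and 11 phi members, and dashed lines mark a 2-fold change either way. The members reach from −0.53 to 3.47, and 13 of them are among the 500 largest rises.

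In the tau class GSTU24 (AT1G17170) and GSTU25 (AT1G17180) had the largest fitted ratios. With the log ratio of the scanner software, Feature Extraction, GSTU11, GSTU25, GSTU22 and GSTU12 stood above GSTU24, so the order among these genes depends on the processing. Both enzymes are known to conjugate the explosive trinitrotoluene with glutathione. The normalised log2 signal of GSTU24 was 13.96, 12.35, 13.06 and 13.10 in ron3 on arrays a to d, against 10.02, 9.62, 9.29 and 9.67 in Ler. The genotypes did not overlap, and array b had the smallest gap. GSTU24 had log2 ratios of 3.94, 2.74, 3.76 and 3.43, a fitted 11.1-fold rise (3.47 ± 0.53, SD, n = 4; limma, adjusted p = 0.000206). It was the only member among the 100 largest rises of all genes tested, with GSTU25 just past that cut at rank 102. GSTU25, its neighbour, had a normalised log2 signal of 10.59, 8.92, 9.97 and 9.73 in ron3 and 6.73, 6.20, 6.70 and 6.91 in Ler, where it was well above background on 2 of 4 arrays. Its log2 ratios of 3.86, 2.72, 3.26 and 2.82 gave a fitted 8.97-fold rise (3.17 ± 0.52; adjusted p = 0.000194, limma). Again the genotypes did not overlap and array b gave the smallest ratio.

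GSTU11 (AT1G69930), GSTU9 (AT5G62480), GSTU22 (AT1G78340), GSTU10 (AT1G74590) and GSTU8 (AT3G09270) rose between 4.11-fold and 5.61-fold. GSTU11 had log2 ratios of 2.80, 2.00, 2.91 and 2.25 on arrays a to d (fitted 2.49 ± 0.44, SD, n = 4; limma, adjusted p = 0.000148). GSTU22 had 3.01, 2.01, 2.28 and 1.21 (fitted 2.13 ± 0.74, 4.37-fold; adjusted p = 0.000907, limma), with its smallest ratio on array d. Both were well above background on 2 of 4 Ler arrays. GSTU10 was the most even of the strongly higher members, with log2 ratios of 2.00, 2.07, 2.18 and 2.00 and an SD of 0.08 (fitted 2.07, 4.19-fold; limma, adjusted p = 0.000148). GSTU8 had 2.14, 2.66, 2.28 and 1.08 (fitted 2.04 ± 0.68, 4.11-fold; adjusted p = 0.00289, limma), again with array d lowest.

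GSTU9 was uneven. Its log2 ratio was 2.86, 2.61 and 2.91 on arrays a, c and d and 1.00 on array b. The ron3 signal set array b apart: it was 9.44 there and 10.89 to 11.54 on the other arrays, against 8.25 to 8.63 in Ler over all 4. The fitted rise was 5.08-fold (2.34 ± 0.91, SD, n = 4; limma, adjusted p = 0.00337), and without array b the fitted log2 ratio was 2.82.

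GSTU12 (AT1G69920), GSTU3 (AT2G29470) and GSTU4 (AT2G29460) rose from a Ler signal at or near background. GSTU12, next to GSTU11, was well above background on 0 Ler arrays and 4 ron3 arrays. Its log2 ratios of 2.35, 1.98, 1.35 and 1.21 gave a fitted 3.30-fold rise (adjusted p = 0.00245, limma). GSTU4, likewise at 0 Ler and 4 ron3 arrays, had 1.21, 0.81, 0.77 and 0.45, a fitted 1.75-fold rise (limma, adjusted p = 0.0025). For both, the ron3 mean was also set against, per array, the higher of the Ler signal and the dimmest signal well above background. That gave the same folds, so it adds no lower bound to the fit. The 95% confidence intervals reached down to a log2 ratio of 1.15 for GSTU12 and 0.54 for GSTU4. With Ler at background, both sizes are uncertain. GSTU3 was well above background on 1 Ler array and had log2 ratios of 1.33, 1.00, 1.50 and 0.32 (fitted 1.04 ± 0.53, SD, n = 4; limma, adjusted p = 0.00216), the lowest of them on array d. Its Ler signal was at background on the other 3 arrays, so the size of the rise is uncertain, and the log ratio of Feature Extraction gave 3.22.

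**Figure D3:**
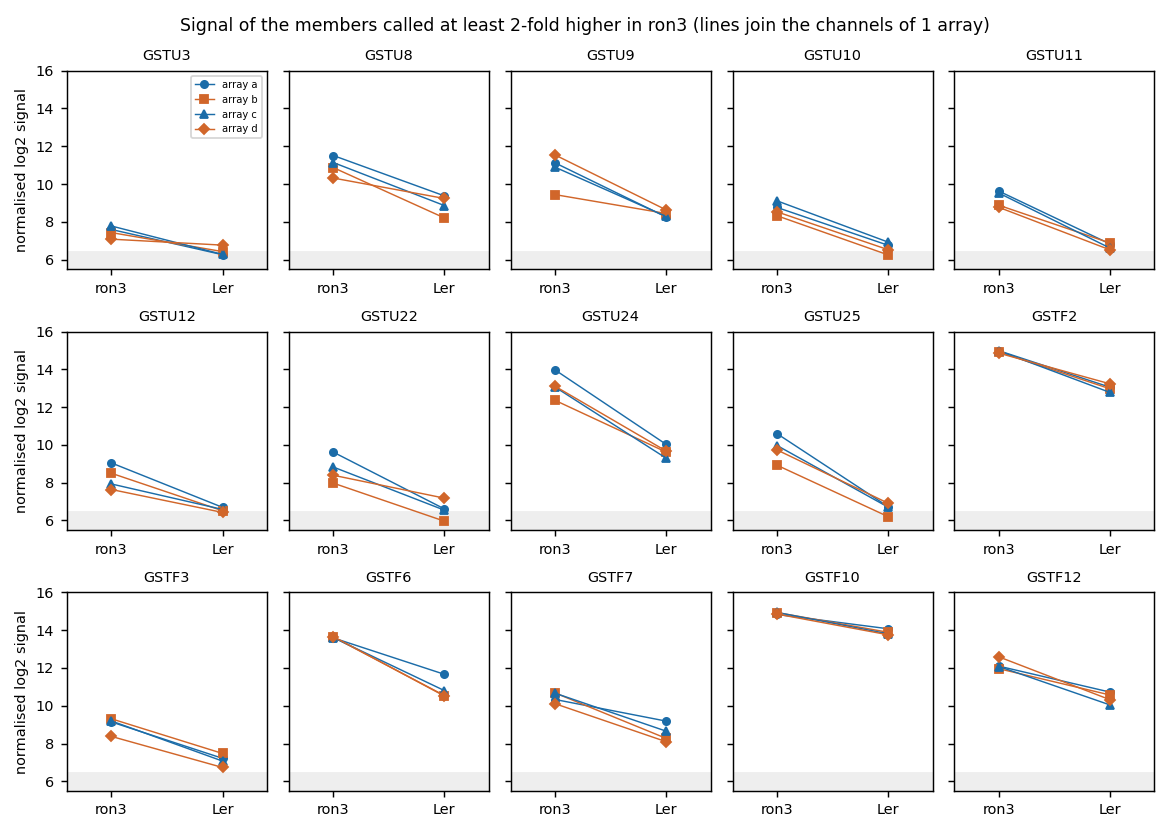
Normalised log2 signal (y axis) in ron3 and in Ler (x axis) for the 15 members at least 2-fold higher in ron3, 1 panel each. A line joins both channels of 1 array, blue for arrays a and c, with ron3 in Cy5, and orange for b and d, and the grey band ends at 6.43, the highest of the per-array floors, each the dimmest signal well above background in a genotype. Every line falls towards Ler, and the Ler points of GSTU12 lie in or just above the band.

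The other 10 higher tau members rose less than 2-fold on the fitted scale. GSTU4 is described above, and the remaining 9 had fitted log2 ratios between 0.17 and 0.66. GSTU19 (AT1G78380) and GSTU20 (AT1G78370) belong to these. GSTU20 is known as a partner of the jasmonate-conjugating enzyme FIN219 in far-red light signalling. GSTU19 had log2 ratios of 0.86, 0.32, 0.79 and 0.34 on arrays a to d (fitted 0.57 ± 0.29, SD, n = 4; limma, adjusted p = 0.000501), and GSTU20 had 0.69, 0.42, 0.96 and 0.28 (fitted 0.59 ± 0.30; adjusted p = 0.00149, limma). In both genes the arrays with ron3 in Cy5 gave the larger ratios, a mean of 0.82 against 0.33 with ron3 in Cy3 for GSTU19 and 0.83 against 0.35 for GSTU20, and both orientations lay above 0. Such gaps were not particular to these genes. The means were 2.64 with ron3 in Cy5 against 1.61 in Cy3 for GSTU22, and 3.85 against 3.08 for GSTU24. For GSTF6 they went the other way, 2.36 against 3.12.

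GSTU17 (AT1G10370), also called ERD9, an early gene of the response to dehydration, had log2 ratios of 0.46, 0.61, 0.59 and 0.43 (fitted 0.52 ± 0.09, SD, n = 4; limma, adjusted p = 0.00126). GSTU1 had 0.78, 0.58, 0.73 and 0.57 (fitted 0.66 ± 0.11; adjusted p = 0.000383, limma). GSTU7 had 0.63, 0.64, 0.61 and 0.48 (fitted 0.59 ± 0.07; limma, adjusted p = 0.000659). These genes varied little between arrays. GSTU27 and GSTU16 were higher by 0.36 ± 0.10 and 0.39 ± 0.16, and the call of GSTU16 ended without array a (limma, adjusted p = 0.0506). The calls of GSTU14 and GSTU21 were less firm. GSTU14, with 0.91, 0.67, 0.59 and 0.09 and an adjusted p of 0.012 (limma), was not called without array a (adjusted p = 0.0599). GSTU21, with 0.11, 0.16, 0.30 and 0.12 and an adjusted p of 0.0285 (limma), was not called without array b, c or d, at adjusted p of 0.0683, 0.156 and 0.052. Each of these was well above background on 1 Ler array.

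GSTU18 (AT1G10360) and GSTU5 (AT2G29450) were the tau members that were lower. GSTU18 had a normalised log2 signal of 12.27, 12.50, 12.43 and 12.44 in ron3 on arrays a to d, against 12.90, 12.82, 12.99 and 13.06 in Ler. Every ron3 value lay below every Ler value. The log2 ratios were −0.63, −0.32, −0.56 and −0.62 (fitted −0.53 ± 0.14, SD, n = 4; limma, adjusted p = 0.00204). GSTU5, known as an auxin-inducible gene, had −0.40, −0.15, −0.31 and −0.70 (fitted −0.39 ± 0.23; adjusted p = 0.0233, limma). Its call ended without array a (adjusted p = 0.0993) and without array c (adjusted p = 0.076).

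GSTU13 (AT1G27130), GSTU23 (AT1G78320), GSTU26 (AT1G17190) and GSTU28 (AT1G53680) were not called. GSTU13, an enzyme of indole glucosinolate metabolism, had −0.04, −0.13, 0.06 and −0.36 on arrays a to d. Its 95% confidence interval of −0.26 to 0.03 leaves room for a small fall. GSTU23 had 0.10, 0.40, −0.02 and 0.06 (interval −0.05 to 0.32), and GSTU26 had −0.17, −0.06, 0.12 and −0.46 (interval −0.38 to 0.09). GSTU28 had 0.13, −0.02, −0.05 and −0.18 (interval −0.17 to 0.12). All 4 intervals lie within a 2-fold change either way. The lack of a call was not stable: GSTU13 and GSTU26 were lower without array b (limma, adjusted p = 0.036 and 0.0456), and GSTU23 was higher without array d (adjusted p = 0.0222). GSTU26 was also lower with the arrays averaged in the pairs a with b and c with d (adjusted p = 0.0437, limma), and GSTU23 higher with median centring (adjusted p = 0.0377).

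In the phi class 9 of 11 members were higher, GSTF11 was lower and GSTF14 was not called. GSTF6 (AT1G02930), an enzyme of camalexin synthesis that conjugates glutathione to an activated indole, rose the most of them. Its normalised log2 signal was 13.59, 13.64, 13.60 and 13.66 in ron3 on arrays a to d, and 11.66, 10.54, 10.80 and 10.52 in Ler. The ron3 channel was nearly constant, and the spread of the ratio came from Ler, where array a was high. The log2 ratios of 1.93, 3.09, 2.80 and 3.14 gave a fitted 6.69-fold rise (2.74 ± 0.56, SD, n = 4; limma, adjusted p = 0.000381). GSTF7 (AT1G02920), its neighbour and close paralogue, had 1.14, 2.40, 2.01 and 2.01 (fitted 1.89 ± 0.53, 3.71-fold; adjusted p = 0.000896, limma), and array a was again the lowest.

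GSTF2 (AT4G02520) and GSTF3 (AT2G02930) are near-identical paralogues on different chromosomes, and GSTF2 is known to bind camalexin and related indoles. GSTF2 had a normalised log2 signal of 14.98, 14.92, 14.98 and 14.85 in ron3, against 13.05, 12.97, 12.78 and 13.23 in Ler. Its log2 ratios were 1.93, 1.95, 2.20 and 1.62, a fitted 3.80-fold rise (1.93 ± 0.24, SD, n = 4; limma, adjusted p = 0.000253). GSTF3 had 1.93, 1.83, 2.12 and 1.64, a fitted 3.68-fold rise (1.88 ± 0.20; adjusted p = 0.000188, limma). In both genes array c gave the highest ratio and array d the lowest. The arrays cannot separate transcripts that bind each other's probe. Such binding is possible for this pair, for GSTF6 with GSTF7 and for tandem neighbours of the tau class, so their separate values are uncertain. Probe sequences were not examined.

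GSTF12 (AT5G17220), also known as TT19, is needed for the accumulation of anthocyanins in the vacuole. Its normalised log2 signal was 12.10, 11.96, 12.08 and 12.59 in ron3, against 10.72, 10.57, 10.04 and 10.32 in Ler, with no overlap. The log2 ratios of 1.37, 1.39, 2.03 and 2.27 gave a fitted 3.40-fold rise (1.77 ± 0.45, SD, n = 4; limma, adjusted p = 0.00154). GSTF10 (AT2G30870), known as ERD13 from dehydration responses, had 0.76, 1.05, 1.13 and 1.10 (fitted 1.01 ± 0.17, 2.01-fold; adjusted p = 0.000612, limma), which put it just above a 2-fold rise. Just below it, GSTF8 (AT2G47730), a gene induced by salicylic acid and hydrogen peroxide, had 0.70, 0.67, 0.84 and 1.16 (fitted 0.84 ± 0.22, 1.80-fold; limma, adjusted p = 0.00168).

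GSTF9 (AT2G30860), next to GSTF10, had log2 ratios of 0.47, 0.30, 0.94 and 0.29 (fitted 0.50 ± 0.31, SD, n = 4; limma, adjusted p = 0.00661). GSTF13 (AT3G62760), well above background on 0 Ler arrays and 4 ron3 arrays, had 0.30, 0.56, 1.05 and 0.30. The fitted rise was 1.47-fold (adjusted p = 0.0219, limma), with a 95% confidence interval of 0.182 to 0.925 on the log2 scale. With Ler at background, the size of the GSTF13 rise is uncertain. Its call ended without array b (adjusted p = 0.0559). GSTF11 (AT3G03190), an enzyme of aliphatic glucosinolate synthesis, was lower, with −0.53, −0.28, −0.39 and −0.41 (fitted −0.40 ± 0.10; limma, adjusted p = 0.00207). GSTF14 (AT1G49860) divided the arrays: it had 0.58, 0.51 and 0.24 on arrays a to c and −0.65 on array d, and was not called (fitted 0.17 ± 0.56, 95% confidence interval −0.38 to 0.72). Without array d it was higher, at 0.46 (adjusted p = 0.0104, limma), and without array b its fitted value was −0.12 (adjusted p = 0.273).

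Both classes had a similar share of higher members, 19 of 25 tau and 9 of 11 phi, beside 37.0% of all genes tested. These counts include the members that passed through ron3 alone. Among members measured in both genotypes 14 of 20 tau and 8 of 10 phi were higher, beside 35.8% of all genes so measured. The medians of these were 0.58 and 1.39. The median log2 ratio was 0.59 in the tau class and 1.01 in the phi class. It was 0.72 and 1.79 with the log ratio of Feature Extraction, and 0.46 and 1.39 when both channels had to be well above background on all 4 arrays. The range was −0.53 to 3.47 in the tau class and −0.40 to 2.74 in the phi class. By array, the tau medians were 0.78, 0.61, 0.73 and 0.43 on a to d, and the phi medians were 0.76, 1.05, 1.13 and 1.16. The tau median was thus the higher one on array a and the phi median on the other 3 arrays. The lowest of the 4 ratios fell on array d in 15 of 25 tau members and in 4 of 11 phi members, where it did so in 32.5% of all genes tested and in 11 of 11 root markers. In 6 of 11 phi members the lowest ratio was on array a, where it was in 4575 of all 19246 genes tested. Among all 1159 genes at least 2-fold higher the lowest ratio was on array a in 311 and on array d in 15.6%. Of the members at least 2-fold higher, 4 of 9 tau and 2 of 6 phi had it on array d. On array a it was 1 of 9 tau and 4 of 6 phi. Array d is also the one on which the root markers had a mean log2 ratio near 0, at −0.02 (median 0.03). Single root markers ran from −1.10 to 0.67 on that array. The class medians there were 0.43 and 1.16 as given above, and the part of root tissue was not tested.

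Ratios of dim members depended on how the signals were processed. The background correction adds an offset of 50 to each signal, which draws the ratio of a dim spot towards 0. With the deposited log ratio of Feature Extraction, 10 members moved by more than 1.5-fold, all of them upwards. GSTU11 stood at 4.62 on the log2 scale in that measure, GSTU25 at 4.60, GSTU22 at 3.74, GSTU12 at 3.66 and GSTU10 at 3.29. GSTU3 stood at 3.22, GSTU4 at 2.94, GSTF3 at 2.59, GSTF13 at 2.27 and GSTU14 at 1.78. All of these but GSTF3 were well above background on at most 3 Ler arrays. The bright members moved little, with GSTU24 at 3.58, GSTF6 at 2.77 and GSTF2 at 1.94. GSTU14 and GSTU21 were not called in that measure (limma, adjusted p = 0.0559 and 0.0848), while GSTU13, at −0.32, and GSTU28, at −0.30, were lower.

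Most members, 27 of 39, lie in 9 tandem clusters, which allows neighbours to be compared on the same arrays. The cluster GSTU24 to GSTU26 held the widest range of the 9, 3.61 on the log2 scale. GSTU24 exceeded GSTU26 by 4.11, 2.80, 3.65 and 3.89 on arrays a to d, and GSTU25 exceeded it by a mean of 3.31 ± 0.52 (SD, n = 4). The order of GSTU24 and GSTU25 depended on the processing: GSTU24 was above by 0.30 ± 0.30 here, and below GSTU25, at 3.58 against 4.60, with the log ratio of Feature Extraction. In GSTU17 and GSTU18 the neighbours were called in opposite directions, with GSTU17 above GSTU18 by 1.09, 0.93, 1.15 and 1.05. In GSTU1 to GSTU7 on chromosome 2, GSTU1, GSTU3, GSTU4 and GSTU7 were higher and GSTU5 was lower. GSTU5 lay below GSTU1 by a mean of 1.05 ± 0.24 and below GSTU7 by 0.98 ± 0.17, on all 4 arrays.

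In the cluster GSTU19 to GSTU23 on chromosome 1, GSTU22 exceeded GSTU19 by 2.15, 1.69, 1.49 and 0.88, while GSTU20 and GSTU19 differed by 0.01 ± 0.15 (SD, n = 4) and stood in either order, 2 arrays each way. Among pairs, GSTF6 exceeded GSTF7 on 4 of 4 arrays (mean 0.85 ± 0.19) and GSTF10 exceeded GSTF9 on 4 of 4 (0.50 ± 0.31). GSTU14 stood above GSTU13 on 4 of 4 (0.68 ± 0.23). It passed the filter through ron3 alone, which favours a higher ratio, so that pair is not ranked. GSTU11 and GSTU12 were both higher, but GSTU12 also passed through ron3 alone and is not ranked against its neighbour. These are descriptions of differences between probes on the same arrays, with no test. In GSTU15 and GSTU16 only GSTU16 was measured. Members outside clusters had a median of 1.31 (12 tested) and members inside clusters a median of 0.59 (24 tested). These groups differ in their mix of classes, so the medians are not ranked. Outside clusters the median was 2.04 in the tau class (5 tested) and 0.84 in the phi class (7 tested). The phi members inside clusters, GSTF6, GSTF7, GSTF9 and GSTF10, stood at 2.74, 1.89, 0.50 and 1.01. The shares called were alike, with 75% higher outside and 79.2% inside, and 8.33% lower in both, beside 37.0% and 32.8% of all genes tested. They include members that passed through ron3 alone, GSTU3, GSTU4, GSTU12, GSTU14 and GSTU21 inside and GSTF13 outside. The filter favours a higher call for these, so the likeness is not read as a result.

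**Figure D4:**
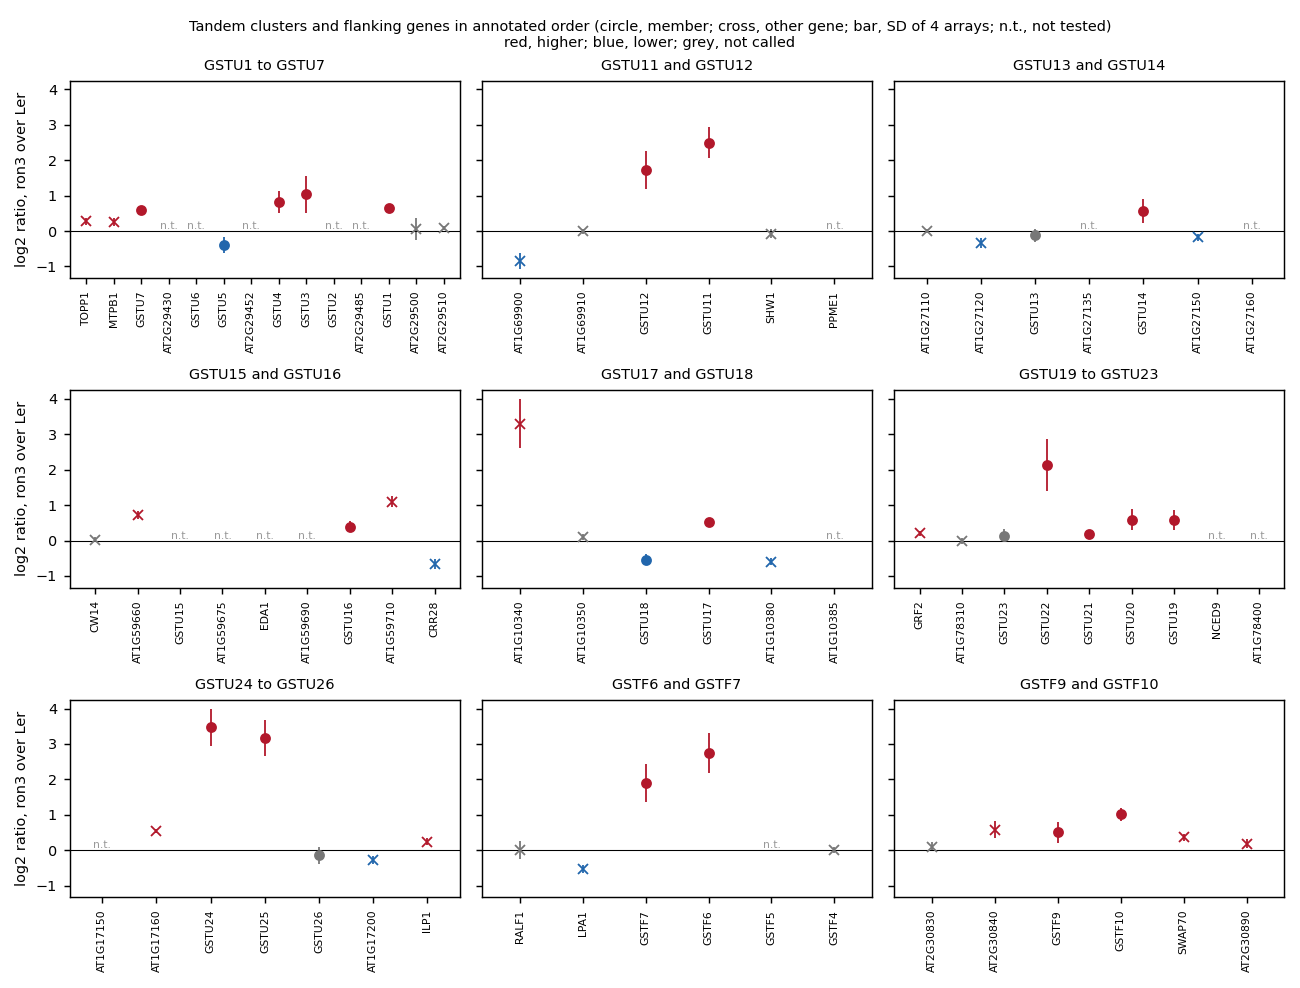
Fitted log2 ratio of ron3 over Ler (y axis) along each of the 9 tandem clusters, with loci in annotated order (x axis). Circles are members, crosses are other genes inside or within 2 loci of the cluster, bars are the SD of 4 arrays, and n.t. marks loci not tested. Red is higher, blue lower and grey not called, so that GSTU24 and GSTU25 stand above 3 next to GSTU26 at −0.14.

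Of 29 flanking genes tested, taken up to 2 loci either side of a cluster, 11 were higher and 7 lower, where 37.0% of all genes were higher and 32.8% lower. Their fitted log2 ratios ran from −0.85 to 1.10 apart from AT1G10340, 2 loci from GSTU18, at 3.30 ± 0.69 (SD, n = 4; limma, adjusted p = 0.000903). AT1G10340 was named after its value was seen. Near GSTF6, the phi class gene GSTF4 was at 0.00 and was not called (adjusted p = 0.958, limma), and GSTF5 was well above background on 0 arrays. Neither GSTF4 nor GSTF5 is counted among the members.

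Genes that act with these enzymes were examined as lists, whose counts stand beside 37.0% higher and 32.8% lower among all genes tested. The glutathione conjugate transporters ABCC1, ABCC2 and ABCC3 of the vacuolar membrane were all higher. ABCC3 had log2 ratios of 3.87, 2.62, 3.79 and 4.32 on arrays a to d (fitted 3.65 ± 0.72, 12.6-fold; SD, n = 4; limma, adjusted p = 0.00073), with array b lowest, as in 576 of the 1159 genes at least 2-fold higher in ron3. ABCC2 and ABCC1 stood at 1.03 ± 0.12 and 0.42 ± 0.06. Of 9 tested genes of glutathione synthesis, reduction, transport and turnover 4 were higher, or 3 with the log ratio of Feature Extraction, and 2 lower. The shares of 44.4% for the 4 and 22.2% for the 2 are near those of all genes, and the median was 0.12. GR1, a glutathione reductase, was at 1.29 ± 0.10, GGT4, the vacuolar enzyme that degrades glutathione conjugates, at 0.93 ± 0.04, and CLT3, a plastid thiol transporter, at 0.96 ± 0.24. GGT1, which acts outside the cell, was lower at −0.57 ± 0.20. GSH1 and GSH2, the enzymes of glutathione synthesis, stood at 0.04 ± 0.19 (not called) and 0.18 ± 0.13 (limma, adjusted p = 0.0324). CLT2 was lower at −0.42 ± 0.10, and these last 3 genes were named after their values were seen.

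Other classes of the transferase family were split. Of 13 genes tested, which include GSTF4, 7 were higher and 2 lower, with a median of 0.18. GSTL1, of the lambda class, rose the most of these genes, with log2 ratios of 2.71, 2.48, 2.72 and 2.35 (fitted 2.56 ± 0.18, SD, n = 4; adjusted p = 0.000138, limma) and a Ler signal well above background on 2 arrays. The dehydroascorbate reductases DHAR1 and DHAR2 were at 1.76 ± 0.20 and 1.56 ± 0.07, and GSTZ1, of tyrosine breakdown, was at 1.38 ± 0.04. The 2 lower ones, named after their values were seen, were DHAR3 at −0.59 ± 0.10 and GSTL2 at −0.46 ± 0.12. Among 8 glutathione peroxidases 5 were higher and 1 lower, or 2 lower with the log ratio of Feature Extraction. GPX1, a plastid enzyme, was lower at −1.08 ± 0.09. GPX5, GPX8 and GPX2 were at 0.60 ± 0.09, 0.53 ± 0.09 and 0.46 ± 0.11.

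**Figure D5:**
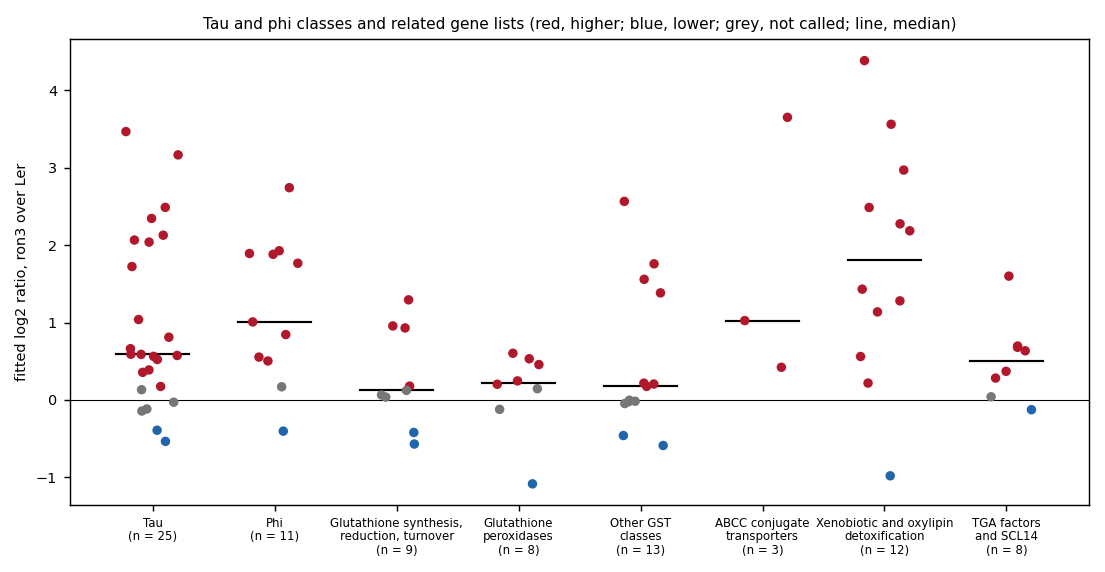
Fitted log2 ratio of ron3 over Ler (y axis) of the tested members of the tau and phi classes and of 6 related gene lists (x axis), 1 point per gene, red for higher, blue for lower and grey for not called. A line marks each median, from 0.12 in glutathione synthesis, reduction and turnover to 1.81 in xenobiotic and oxylipin detoxification, against 0.59 for the tau and 1.01 for the phi class.

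Genes of xenobiotic and oxylipin detoxification, which are often induced together with tau class genes, were higher in 11 of 12 cases, with a median of 1.81. ABCG40, a plasma membrane transporter, had log2 ratios of 4.51, 4.12, 4.62 and 4.28 (fitted 4.38 ± 0.23, SD, n = 4; limma, adjusted p = 8.10e-05). The aldo-keto reductase AKR4C9, the oxophytodienoate reductase OPR2 and the glycosyltransferase UGT73B5 were at 2.97 ± 0.20, 1.43 ± 0.20 and 1.28 ± 0.14. The cytochrome P450 CYP81D11, named after its value was seen, was lower at −0.98 ± 0.18. TGA factors bind promoters of glutathione transferase genes, and SCL14 is a partner of some of them. Of these 8 genes 6 were higher, or 5 with the log ratio of Feature Extraction. TGA6 was not called, TGA4 was lower at −0.13 ± 0.10, and the median was 0.50. TGA7 was at 1.60 ± 0.15, TGA5 at 0.70 ± 0.08, SCL14 at 0.68 ± 0.14 and TGA3 at 0.64 ± 0.11. TGA4 and TGA6 were named after their values were seen, and the call of TGA4 ended whichever of the 4 arrays was left out.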

How the data were processed

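Each array held ron3 and Ler RNA in 2 dyes. Per the labels, 1 µg of RNA was spiked with 10 control transcripts, amplified and labelled. Per the file headers, the deposited spot and background signals are medians of pixel intensity, quantified with Agilent Feature Extraction 10.1.1.1 (per the submitters' processing notes), the deposited log ratio is a log10, with processed Cy5 over processed Cy3, and deposited flags are of another kind, 0 or 1. The authors' deposited table gives, for 33441 probes, log2 ratios of the processed signals, ron3 over Ler, not centred (array medians −0.17 to 0.01), and matched them within 0.001 for 100% of 33418 probes with 1 spot.

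Each array had 39102 spots, 1417 of them controls, and 37478 gene probes. Between 55.5% and 59.5% of these were well above background in ron3 and 54.2% to 57.0% in Ler. The median Cy5 signal was 148 on array d, the dimmest, and 194.5 to 222 elsewhere. No gene spot was saturated. Between arrays, ratios correlated across genes (no independent replicates) at r = 0.888 to 0.951. The number of arrays limits the precision, and all 4 lay on 1 slide.

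Signals were corrected with normexp (offset 50) and normalised by loess within arrays in limma 3.58.1 and R 4.3.3. A probe was kept if on 2 or more arrays either genotype was well above background and 3 or more arrays were unflagged, and the brightest probe stood for its gene. The model had a dye effect per probe and 2 residual degrees of freedom beside 2.45 prior ones, and Benjamini-Hochberg adjustment ran over all 19246 genes tested. The dye effect was called for 0 genes (limma), with 2208 at an unadjusted p under 0.05. SDs are those of the 4 ratios and include the dye effect, unlike the p-values. Normalised signals are per channel after loess and Aquantile. The fit was also run on simulated data with independent errors and few changed genes. That setting is unlike these data, so the run does not bear on the calls made here. Names came from the files and a reference table (assembly TAIR10.1) that held all 39 members and all 77 loci of the lists. The members, lists and tests were chosen with earlier results of these data known. Any member could be named, and of each list up to 4 called genes with the smallest p. Lists are described by counts, and no list was tested as a set. Promoter motifs planned for the members were not analysed here.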

Additional observations from a re-analysis of the deposited data

Results flagged for a closer look

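A single array lay far from the other 3 in 2 of the 36 members tested, where chance alone marks about 1 in 20 groups of 4. GSTU7 had a log2 ratio of 0.48 on array d, against 0.61 to 0.64 on the others, so the marked gap is small in size. GSTU9 had 1.00 on array b, against 2.61 to 2.91 on the others.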

How the results depend on the processing

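Set against the alternatives one by one, the ratios of RON3 and the members kept their direction and side of the threshold in 518 cases, lost a call in 14, gained one in 10 and reversed, uncalled, in 3. Both the log ratio of Feature Extraction and the authors' deposited table gave 5 lower members, 4 of them tau, and a phi median of 1.79. They gave 26 higher members, and over all genes 5999 and 5995 higher against 7392 and 7393 lower, where the fit above gave 7124 and 6311. Requiring a signal well above background in both channels on all 4 arrays left 18 higher members, 10 of them tau, and a phi median of 1.39. Leaving out 1 array at a time gave 2 to 5 lower members, 1 to 4 of them tau, and 26 to 29 higher ones, and moved no called member by more than the 1.39-fold of GSTU9. Over these, GSTU28, not called at −0.03, ran from −0.074 to 0.015 and reversed without array c or d, and GSTF14, not called at 0.17, ran from −0.12 to 0.46 and reversed without array b. Causes were not tested. An alternative added after seeing the data, members measured in both genotypes only, left 22 higher members, 14 tau and 8 phi. Signal over background limits GSTU2, GSTU6 and GSTU15, which could not be tested, and the folds of the 6 members that passed through ron3 alone.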
